A study of Mus musculus with 47 samples.

Results

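The 8 genes described here, Nos2, Slc7a2, Ass1, Asl, Gch1, Arg1, Arg2 and Odc1, carry the use of arginine in macrophages, and were chosen by gene symbol. All 8 were found among the 51912 genes of the BMDM tables and in each of the 4 Raw264.7 tables, which list between 12771 and 23772 genes. BMDMs (bone marrow-derived macrophages) were obtained by growing marrow cells with 20 ng/ml M-CSF, for 5 days according to the Methods. BMDMs of C57BL/6 mice, either WT or Zmynd8 cKO, were left non-treated (NT) or given 100 ng/ml LPS (from the outer membrane of bacteria) or 20 ng/ml of the cytokine IL-4 for 6 h. The cKO mice carry floxed Zmynd8 alleles and Cre driven from the Lyz2 locus, which is active in myeloid cells. Per the Methods, the WT controls were littermates that also carry the floxed alleles. Each of the 6 conditions has 1 library, which pools 3 biological replicates per the Methods, and no difference below has a replicate check. The other 6 libraries are labelled Raw264.7, a mouse macrophage line. Of these, 3 carry a Zmynd8 KO made with lentiviral guide RNAs, as Zmynd8 KO alone, with WT Zmynd8 put back, or with a D/E-A mutant put back, in which acidic residues were changed to alanine. The other 3 carry a p65 KO made the same way and were given LPS, as p65 KO alone, with WT p65 put back, or with p65 K122R put back, in which a lysine that can be acetylated is arginine. The Results give LPS for the WT Zmynd8 and D/E-A cells, but a treatment is not named for the library of Zmynd8 KO. Whether each line is a clone is not stated. The column taken as WT p65 does not name the p65 KO.

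Nos2 encodes the inducible nitric oxide synthase, which turns arginine into nitric oxide and citrulline. Arg1 and Arg2 encode the cytosolic and the mitochondrial arginase, which turn arginine into ornithine and urea. Both enzymes draw on the same arginine, and Nos2 after LPS and Arg1 after IL-4 are the textbook marks of classically and alternatively polarised mouse macrophages. Slc7a2 encodes the cationic amino acid transporter CAT2, which brings arginine into the cell. Ass1 and Asl encode argininosuccinate synthase and argininosuccinate lyase, which rebuild arginine from citrulline. Gch1 encodes GTP cyclohydrolase, the first enzyme in making tetrahydrobiopterin, a cofactor of nitric oxide synthases. Odc1 encodes ornithine decarboxylase, which starts polyamine synthesis from ornithine.

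In mm10 coordinates, which are those of the GRCm38.p6 annotation used here, Nos2 (ENSMUSG00000020826) lies at chr11:78920787-78960254 on the plus strand and Arg1 (ENSMUSG00000019987) at chr10:24915221-24927484 on the minus strand. Arg2 (ENSMUSG00000021125) lies at chr12:79130777-79156301 and Odc1 (ENSMUSG00000011179) at chr12:17544794-17551505, both on the plus strand. Slc7a2 (ENSMUSG00000031596) lies at chr8:40862396-40922308 and Ass1 (ENSMUSG00000076441) at chr2:31470207-31520672, both on the plus strand. Asl (ENSMUSG00000025533) lies at chr5:130011258-130029247 and Gch1 (ENSMUSG00000037580) at chr14:47153895-47189413, both on the minus strand. All 8 are protein coding genes, and the values below are read counts over their transcripts.

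Promoter sequences were matched by symbol for 3 of the 8 genes, Ass1, Gch1 and Odc1, which after IL-4 in WT BMDMs were higher, lower and lower than in NT. The RefSeq windows of GRCm38.p6 are given 5′ to 3′ on the strand of the gene, and only the bases before the first annotated start are printed. The positions are chr2:31470020-31470206 (plus) for Ass1, chr14:47189414-47189663 (minus) for Gch1 and chr12:17544623-17544793 (plus) for Odc1. Capitals mark a match, on either strand, to TATAAA or to the NF-kB consensus.
Ass1: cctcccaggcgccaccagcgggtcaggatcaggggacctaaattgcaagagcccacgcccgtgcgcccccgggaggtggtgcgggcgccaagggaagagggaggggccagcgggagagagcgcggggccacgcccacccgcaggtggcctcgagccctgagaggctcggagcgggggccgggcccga
Gch1: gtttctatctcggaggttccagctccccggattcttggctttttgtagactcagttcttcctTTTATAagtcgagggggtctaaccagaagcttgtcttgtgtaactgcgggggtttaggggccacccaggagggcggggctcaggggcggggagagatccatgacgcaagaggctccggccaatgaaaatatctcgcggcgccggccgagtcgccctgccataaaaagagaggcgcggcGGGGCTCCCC
Odc1: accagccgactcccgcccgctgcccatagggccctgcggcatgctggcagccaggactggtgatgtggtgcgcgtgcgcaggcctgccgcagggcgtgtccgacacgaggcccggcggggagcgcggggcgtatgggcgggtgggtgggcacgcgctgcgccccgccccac

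The 250 bases before the RefSeq start were searched on both strands for TATAAA, the NF-kB, STAT6 and interferon response consensus, TTCNNNGAA (STAT), TGANTCA (AP-1), CACGTG (E-box), TTGCNNAA (C/EBP), ATGCAAA (octamer) and TGATGNAA (amino acid response). The Gch1 window held 1 match to the NF-kB consensus, which 7.25% of the 32851 promoters in the table hold, and 1 to TATAAA on the other strand, held by 12.4%. The Ass1 window held CACGTG, present in 6.02% of promoters, beyond the printed bases, and none of the others, and the Odc1 window held none of the 10 motifs. The other motifs are held by between 2.98% and 9.56% of promoters. Over the full 250 bases searched, G and C made up 59.2% in Gch1, 75.6% in Ass1 and 80.0% in Odc1.

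The BMDM libraries held between 22597408 and 28386612 counts, and the libraries labelled Raw264.7 between 15127110 and 21042628 reads. Counts were scaled to the library total as CPM, and reads of the other libraries as RPM. Because each condition has 1 library, no test between conditions was made. In BMDMs a gene was called on the log2 ratio of CPM + 1, at a fold of at least 2 between treatments and of at least 1.2 between genotypes, if its counts averaged 10 or more. For the Raw264.7 libraries it was called at 1.2-fold on the deposited value + 1, if its mean value was at least 1. Fold values in the text are plain ratios of CPM in BMDMs and, in the other libraries, of the deposited values, which are reads over a size factor and not RPM. They have exact 95% limits on the reads, which cover counting error only, and hold no pseudocount. All 7 macrophage markers were found in every BMDM library, with a summed level between 6380.2 and 9637 CPM. The 9 neutrophil markers summed to between 2.37 and 4.22 CPM in NT and LPS libraries and to 383 and 515 CPM in the WT and cKO IL-4 libraries, where all 9 were above 0, while 2 to 5 of them were at 0 in the others. The 4 B cell markers summed to 1.53 and 4.69 CPM in WT and cKO NT, 0.843 and 0.854 CPM after LPS, and 11.1 and 17.2 CPM after IL-4. The 6 dendritic cell markers summed to 1.72 and 0.797 CPM in NT, 15.8 and 21.0 CPM after LPS and 5.85 and 6.35 CPM after IL-4. T cell markers summed to at most 0.0705 CPM and fibroblast markers to at most 2.25 CPM in any BMDM library. Xist, which female cells express, was at 740 and 323 CPM in WT and cKO NT. It was at 246 and 429 CPM after LPS and at 1108 and 1057 CPM after IL-4. The titles number the IL-4 libraries 62 and 63 and the NT and LPS libraries 91 to 94. Of the IL-4 markers, Chil3 and Mrc1 were over 2-fold higher after IL-4 in both genotypes, and Retnla in WT, with 85 counts in WT IL-4, 5 in cKO IL-4, where it was under the count minimum, and 0 in the other 4 libraries. Mgl2, at between 42 and 98 counts, and Ccl24, at between 9 and 34, were not past 2-fold after IL-4. All 5 LPS markers were over 2-fold higher after LPS in both genotypes. Between 1842 and 3944 counts of Zmynd8 were found in all 6 libraries, the cKO ones included, and these counts per gene cannot show whether the floxed exons are gone.

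**Figure D1:**
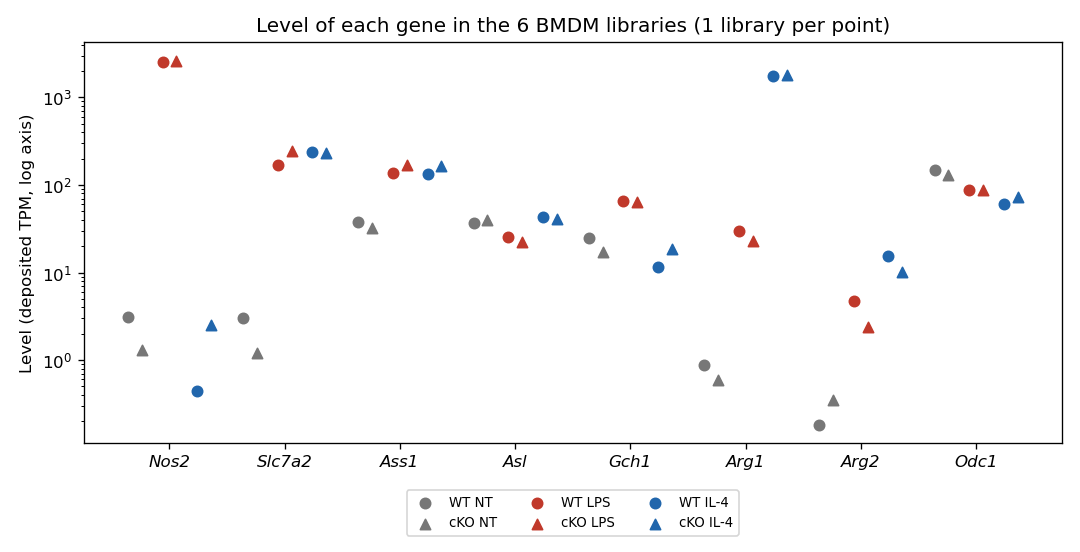
Level of each of the 8 genes in deposited TPM (log axis) in the 6 BMDM libraries, with 1 point for each library, circles for WT and triangles for cKO. Nos2 is at 2508 and 2630 TPM in the LPS libraries and at most 3.08 TPM in the others, and Arg1 is at 1778 and 1784 TPM in the IL-4 libraries.

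Nos2 and Arg1 took opposite places in the LPS and IL-4 libraries. In deposited TPM, which is per length and lets genes be compared, Nos2 was at 3.08 in WT NT, 1.29 in cKO NT, 2508 in WT LPS, 2630 in cKO LPS, 0.44 in WT IL-4 and 2.51 in cKO IL-4. Nos2 was thus high in both LPS libraries only. Arg1 was at 0.88 TPM in WT NT, 0.59 in cKO NT, 29.5 in WT LPS, 22.7 in cKO LPS, 1778 in WT IL-4 and 1784 in cKO IL-4. Arg1 was highest in both IL-4 libraries, intermediate in both LPS libraries and lowest in NT. Nos2 ranked 11th by count among all genes in WT LPS, with 0.747% of all counts (95% exact binomial limits 0.744% to 0.751%), and ranked 9th in cKO LPS, with 0.739%. Arg1 ranked 58th in WT IL-4 with 0.150% of all counts (0.149% to 0.151%), and 53rd in cKO IL-4 with 0.154%.

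Within a library, the Nos2 level exceeded the Arg1 level 84.9-fold (95% limits 78.6 to 91.8) in WT LPS and 116-fold (106 to 127) in cKO LPS, both in TPM. In the IL-4 libraries the order was turned, with Arg1 4041-fold (2905 to 5802) above Nos2 in WT and 711-fold (616 to 825) in cKO. In NT, where both genes were low, Nos2 stood 3.50-fold (2.21 to 5.84) above Arg1 in WT and 2.19-fold (1.24 to 4.15) in cKO. The limits on the NT ratios overlap between genotypes, while those of the LPS and of the IL-4 libraries do not.

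**Figure D2:**
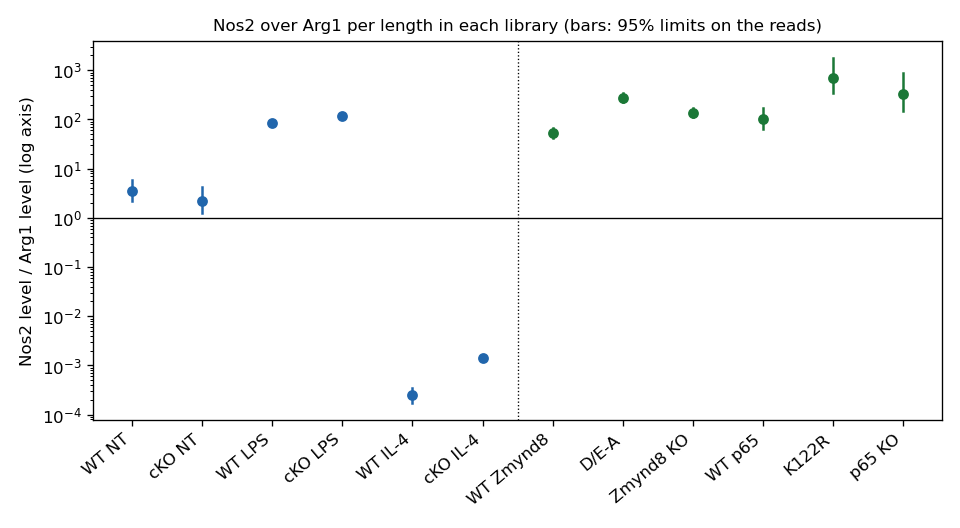
Ratio of the Nos2 level to the Arg1 level (log axis) in each of the 12 libraries, from TPM in BMDMs (left of the dotted line) and from reads per kilobase of exon in the libraries labelled Raw264.7 (right). Bars are 95% limits on the reads, and only the 2 IL-4 libraries lie below 1.

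After LPS, 6 of the 8 genes were past 2-fold higher than NT in WT BMDMs, against 10.5% of the 12813 genes compared, and none was past 2-fold lower, against 32.8% of all genes. Their median log2 ratio was 2.03, beside -0.58 over all genes, which is the shift of the middle gene at this scaling. In cKO BMDMs, the same 6 genes were past 2-fold higher (13.2% of all genes) and Asl past 2-fold lower (32.8% of all genes), with a median of 1.85 beside -0.55. The 2 comparisons give the values of separate libraries, and each shares its NT library with the IL-4 comparison of that genotype.

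On the side of nitric oxide, Nos2 had 229 counts in WT NT and 186078 in WT LPS, and was 855-fold higher (751 to 978). In cKO it had 96 counts in NT and 173173 in LPS, and was 1740-fold higher (1425 to 2148). The LPS counts of the genotypes were close to each other while the NT counts were not. Slc7a2, the arginine transporter, was at 13.4 CPM in WT NT and 688 CPM in WT LPS, a fold of 51.4 (46.2 to 57.3). It was at 7.26 CPM in cKO NT and 982 CPM in cKO LPS, a fold of 135 (116 to 159). Ass1 was 3.82-fold (3.56 to 4.10) higher in WT and 4.33-fold (4.03 to 4.66) higher in cKO, and Gch1 was 2.73-fold (2.56 to 2.93) and 3.11-fold (2.88 to 3.37) higher. Of the 2 enzymes that rebuild arginine, only Ass1 was higher after LPS in both genotypes, since Asl was 1.38-fold (1.25 to 1.51) lower in WT and 2.16-fold (1.96 to 2.39) lower in cKO. With TMM scaling, which follows the middle gene, the log2 ratio of Asl turned to 0.12 in WT and was -0.54 in cKO, no longer past 2-fold.

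On the side of arginase, Arg1 was also higher after LPS, from 20 counts to 659 in WT, a fold of 34.7 (22.3 to 57.2), and from 14 counts to 455 in cKO, a fold of 31.3 (18.5 to 57.8). With pseudocount, the log2 ratios of Arg1 were 3.96 and 3.66. Arg2 had 4 counts in WT NT and 103 in WT LPS, a fold of 27.1 (10.3 to 101), and 8 counts in cKO NT and 46 in cKO LPS, a fold of 5.55 (2.59 to 13.6). The width of these limits comes from the low NT counts. Odc1, at 204 CPM in WT NT and 125 CPM in WT LPS, was 1.63-fold (1.56 to 1.71) lower, and in cKO, at 211 CPM and 118 CPM, it was 1.78-fold (1.70 to 1.87) lower. With TMM, the log2 ratios of Odc1 were -0.12 and -0.27, so most of its difference was that of the middle gene.

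After IL-4, 4 of the 8 genes were past 2-fold higher than NT in WT BMDMs, against 10.0% of the 13090 genes compared, and 3 were past 2-fold lower, against 6.19%. In cKO BMDMs the same 4 genes, Slc7a2, Ass1, Arg1 and Arg2, were past 2-fold higher (15.0% of all genes), and Odc1 was past 2-fold lower (6.09%). The median log2 ratio of the 8 genes was 0.99 in WT and 1.35 in cKO, beside 0.15 and 0.17 over all genes. Neutrophil and B cell markers were also higher in both IL-4 libraries, and dendritic cell markers in both LPS libraries, as given above, and their part in these results was not tested.

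Arg1 had 42592 counts in WT IL-4 and 40252 in cKO IL-4, and was 1966-fold (1273 to 3219) and 2487-fold (1482 to 4549) above NT. Arg2 had 360 and 222 counts in the same libraries, folds over NT of 83.1 (32.2 to 307) and 24.0 (11.97 to 56.3). Both arginases were thus higher after IL-4 than after LPS, Arg1 56.7-fold (52.5 to 61.3) in WT and 79.3-fold (72.3 to 87.2) in cKO, and Arg2 3.07-fold (2.46 to 3.86) and 4.33-fold (3.14 to 6.08). Odc1, which uses the ornithine that arginase makes, was instead 2.52-fold (2.40 to 2.65) lower than NT in WT and 2.13-fold (2.03 to 2.24) lower in cKO, where with TPM, at a log2 ratio of -0.81, it was no longer past 2-fold.

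Slc7a2 and Ass1 were higher after IL-4 as they were after LPS. Slc7a2 was at 1069 CPM in WT IL-4 and 1083 CPM in cKO IL-4, and was 79.8-fold (71.8 to 88.9) and 149-fold (128 to 175) above NT. Ass1 was 3.44-fold (3.21 to 3.69) and 4.25-fold (3.96 to 4.57) above NT. Between LPS and IL-4 neither gene was past 2-fold, and the transporter was 1.55-fold (1.52 to 1.58) lower in WT LPS than in WT IL-4. That order depended on the scaling, since the log2 ratio of Slc7a2 turned from -0.63 to 0.14 with TMM in WT and from -0.14 to 0.59 in cKO.

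Nos2 and Gch1 parted from them. In WT, Nos2 had 229 counts in NT and 35 in IL-4, and was 7.09-fold (4.95 to 10.4) lower after IL-4. In cKO it had 96 counts in NT and 187 in IL-4, and was 1.69-fold (1.31 to 2.18) higher, short of 2-fold. Gch1 was at 45.4 CPM in WT NT and 20.5 CPM in WT IL-4, 2.22-fold (2.01 to 2.45) lower, and at 37.0 CPM in cKO NT and 33.4 CPM in cKO IL-4, 1.11-fold (1.00 to 1.22) lower. Asl was 1.17-fold (1.08 to 1.27) higher after IL-4 in WT and 1.16-fold (1.07 to 1.26) lower in cKO. With TPM the cKO log2 ratios turned, for Asl from -0.21 to 0.03 and for Gch1 from -0.14 to 0.10.

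Set directly against each other, the LPS and IL-4 libraries of WT BMDMs differed past 2-fold in 4 of the 8 genes, with Nos2 and Gch1 higher after LPS (10.5% of 13236 genes) and Arg1 and Arg2 higher after IL-4 (39.4% of genes were past 2-fold lower after LPS). The same 4 genes were past 2-fold in cKO, where 9.30% of genes were higher and 37.0% lower after LPS. Nos2 was 6060-fold (4357 to 8701) higher in WT LPS than in WT IL-4 and 1033-fold (895 to 1198) in cKO, and Gch1 was 6.06-fold (5.55 to 6.63) and 3.44-fold (3.19 to 3.72) higher. With TMM, Odc1 was also past 2-fold higher after LPS and Arg2 was no longer past 2-fold in WT.

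**Figure D3:**
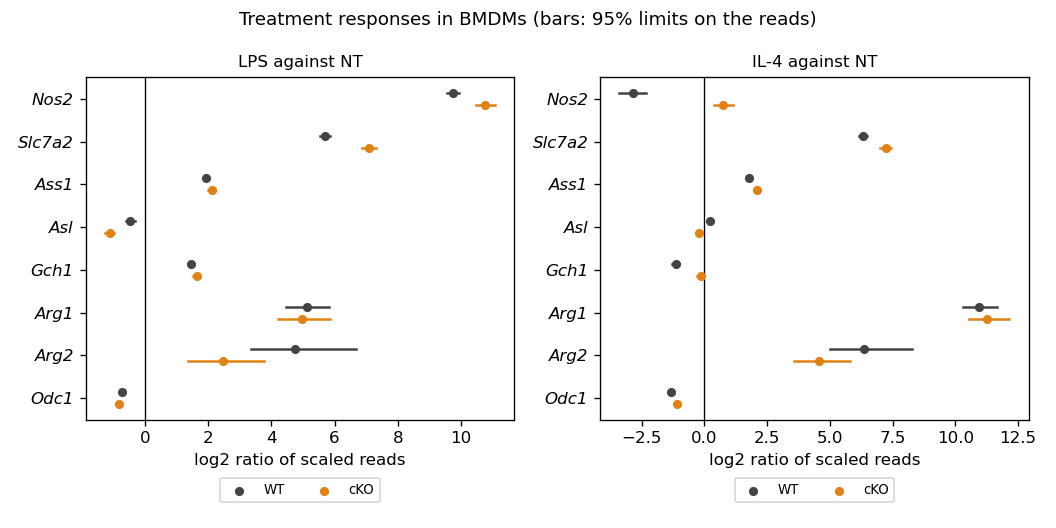
Log2 ratio of scaled reads for each gene, LPS against NT (left) and IL-4 against NT (right), in WT (grey) and cKO (orange) BMDMs, with 1 library per condition. Bars are 95% limits on the reads, and Nos2 after IL-4 lies on opposite sides of 0 in WT and cKO.

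The difference of the treatment response between cKO and WT was taken as the cKO log2 ratio minus the WT log2 ratio, of CPM without a pseudocount and with counting limits only. After IL-4 it was 3.58 (2.95 to 4.20) for Nos2, 1.00 (0.80 to 1.201) for Gch1 and 0.90 (0.63 to 1.17) for Slc7a2. After LPS it was 1.397 (1.13 to 1.67) for Slc7a2 and 1.02 (0.68 to 1.37) for Nos2, and -0.65 (-0.85 to -0.46) for Asl. For Arg2 it was -2.29 (-4.09 to -0.49) for LPS and -1.79 (-3.54 to -0.04) for IL-4, resting on 4 and 8 counts in NT. For Arg1 the limits held 0 after both treatments, at -0.15 (-1.15 to 0.85) for LPS and 0.34 (-0.65 to 1.32) for IL-4. On the log2 ratios of CPM + 1 these differences were 2.76 for Nos2, 0.97 for Gch1 and 0.82 for Slc7a2 after IL-4, and 1.31 for Slc7a2, 0.88 for Nos2 and -0.63 for Asl after LPS. On that scale those of Arg2 were -1.03 for LPS and -0.76 for IL-4, and those of Arg1 -0.31 and 0.16. The pseudocount thus made the differences of Nos2 after IL-4 and of Arg2 smaller. Since the NT libraries enter both responses, the same difference in NT stands in each.

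The study asked how loss of Zmynd8, a reader of histone marks, changes inflammatory genes, and the genotypes were therefore compared within each treatment. In NT, 1 of the 7 genes with enough counts was past 1.2-fold higher in cKO, against 25.0% of 12463 genes, and 3 were past 1.2-fold lower, against 29.0%. Nos2 was at 8.74 CPM in WT and 4.25 CPM in cKO, 2.06-fold (1.61 to 2.64) lower in cKO, and Slc7a2 was 1.85-fold (1.53 to 2.23) lower. Gch1 was 1.23-fold (1.12 to 1.34) lower and Asl 1.29-fold (1.19 to 1.41) higher. The Gch1 call was lost with TMM, at a log2 ratio of -0.26, and the Asl call with TPM, at 0.10 in place of 0.36. Arg1 had 20 counts in WT and 14 in cKO, and its limits held 1. Among the 9 regulators, 4 were past 1.2-fold lower in the same library and 2 higher, with Irf1 at 1546 counts in WT and 719 in cKO. Of the 5 LPS markers, Cxcl10 and Ptgs2 were past 1.2-fold lower in cKO and Tnf was past 1.2-fold higher. Cxcl10 was at 667 counts in WT and 196 in cKO, and Tnf at 868 and 1023. Single macrophage markers went both ways in NT, with Mertk at 98.8 CPM in WT and 40.4 in cKO and Cd14 at 223 and 452. The part of these genes in the result was not tested. With TPM, 22.0% of the genes called in NT were higher in cKO, against 46.3% as reported here.

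After LPS, 1 of the 8 genes was past 1.2-fold higher in cKO, against 22.6% of 12386 genes, and 3 were past 1.2-fold lower, against 13.3%. The share of all calls that were higher depended on the scaling, at 62.8% here, 51.4% with median ratio size factors, 72.8% with TPM and 48.3% with summed macrophage markers, a scaling chosen after seeing the data. Nos2 was at 7472 CPM in WT and 7391 CPM in cKO, 1.01-fold (1.00 to 1.02) lower in cKO, and so did not pass 1.2-fold. In TPM the direction turned, to a log2 ratio of 0.07. Slc7a2 was at 688 CPM in WT and 982 CPM in cKO, 1.43-fold (1.399 to 1.46) higher. Both arginases were lower in cKO after LPS, Arg1 by 1.36-fold (1.21 to 1.54) and Arg2 by 2.11-fold (1.47 to 3.05), and Asl was 1.21-fold (1.09 to 1.35) lower. Ass1 was 1.17-fold (1.12 to 1.23) higher and Gch1 1.08-fold (1.02 to 1.14) lower, neither past 1.2-fold. With TPM, Asl at -0.16 was no longer past 1.2-fold and Ass1 at 0.31 was past it, both on the log2 scale. In the same libraries 4 of the 5 LPS markers were past 1.2-fold higher in cKO, with Il1b at 1626 counts in WT and 4137 in cKO.

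After IL-4, 4 of the 8 genes were past 1.2-fold higher in cKO, against 17.3% of 13245 genes, and Arg2 was past 1.2-fold lower, against 13.4%. Nos2 had 35 counts in WT and 187 in cKO, 5.81-fold (4.03 to 8.58) higher, the only member past 2-fold on the log2(CPM + 1) scale in any of the 3 genotype comparisons. Gch1 was 1.63-fold (1.47 to 1.82) higher, Ass1 1.28-fold (1.23 to 1.34) higher and Odc1 1.22-fold (1.15 to 1.29) higher. Arg1 was at 1500.4 CPM in WT and 1541 CPM in cKO, 1.03-fold (1.01 to 1.04) higher and not past 1.2-fold, and Arg2 was 1.49-fold (1.26 to 1.77) lower. All 5 LPS markers were past 1.2-fold higher in the cKO IL-4 library too, with Cxcl10 at 630 counts in WT and 2556 in cKO, Tnf at 1099 and 3361, and Il6 at 6 and 56. Their part in the Nos2 value was not tested.

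**Figure D4:**
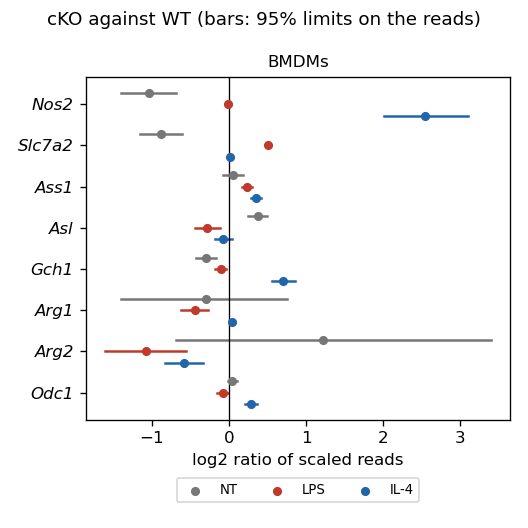
Log2 ratio of scaled reads in cKO against WT BMDMs for each gene in NT (grey), LPS (red) and IL-4 (blue), with 1 library per condition and bars for 95% limits on the reads. Nos2 lies below 0 in NT, close to 0 in LPS and above 0 in IL-4, while Arg1 lies within its limits of 0 in NT only.

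The order of the 6 BMDM libraries was read for each gene in CPM. For Nos2 the order ran cKO IL-4, cKO NT and WT IL-4 at the low end, and the limits of WT NT (7.64 to 9.95 CPM) overlapped those of its neighbour cKO IL-4. For Arg1 the limits of the NT libraries overlapped each other, and so did those of Arg2. The limits of Slc7a2 overlapped between both IL-4 libraries and those of Ass1 between cKO LPS and cKO IL-4 and between both NT libraries. For Asl they overlapped from each to the next along cKO NT, WT IL-4, cKO IL-4 and WT NT. For Gch1 those of cKO NT and cKO IL-4 overlapped, and for Odc1 those of both NT and of both LPS libraries. Overlap of limits does not show that neighbours are equal, and the spread between cultures is not known for any of them.

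The wider pathway was read in 8 lists, whose counts stand beside the shares of all genes past 2-fold. After LPS these were 10.5% higher and 32.8% lower in WT, and 13.2% higher and 32.8% lower in cKO. After IL-4 they were 10.0% higher and 6.19% lower in WT, and 15.0% higher and 6.09% lower in cKO. After LPS, 12 of the 13 polyamine genes had enough counts in WT, where Smox was past 2-fold higher and 6 were lower. Their median log2 ratio was -0.79 beside -0.58 for all genes. In cKO after LPS none was past 2-fold higher and 6 were lower. After IL-4, 3 of the 13 were past 2-fold higher and 3 lower in WT, and 2 were higher and 3 lower in cKO. Srm, which encodes spermidine synthase, went from 1148 counts in WT NT to 14 in WT LPS and from 1942 in cKO NT to 19 in cKO LPS. Of the 6 genes of ornithine and proline metabolism, 4 were past 2-fold lower after LPS in WT and none higher, with Prodh at -2.54 and Oat at -2.18 on the log2 scale. After IL-4 none of the 6 was past 2-fold in either genotype, which is near the shares of all genes given for IL-4. In the creatine list, Gatm, which makes the creatine precursor from arginine, had 2034 counts in WT NT and 95577 in WT IL-4, against 1026 and 76685 in cKO.

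In the list of cofactor genes, Spr, which encodes the last enzyme of tetrahydrobiopterin synthesis, and Qdpr were past 2-fold lower after LPS in both genotypes, with Spr at 813 counts in WT NT and 115 in WT LPS. The other nitric oxide synthases, Nos1 and Nos3, had at most 8 counts in any BMDM library, and of that list Nostrin and Prmt1 were past 2-fold lower after LPS in both genotypes. Of the 6 other transport genes, Slc7a1 and Slc7a6 were past 2-fold lower after LPS in both genotypes, a share like the 32.8% of all genes in each, and Slc7a3, at 5 counts in cKO NT and 40 in cKO LPS, was past 2-fold higher in cKO. Of the urea cycle list only Slc25a15, the mitochondrial ornithine carrier, had enough counts, and it was past 2-fold lower after LPS. Of the 9 regulators, 5 were past 2-fold higher after LPS in WT and 6 in cKO, against 10.5% and 13.2% of all genes, led by Irf1 at 3.69 and 4.56 on the log2 scale.

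The genes whose profile over the 6 BMDM libraries was most like that of Nos2 were Cxcl9, Saa3, Tgtp1, Clic5 and Gbp4, with root mean square differences of 0.51, 0.95, 1.09, 1.32 and 1.44 in centred log2(CPM + 1). Those most like Arg1 were Il4i1, Flt1, Olr1, Chil3 and Rasgrp1, at 0.39, 0.98, 1.47, 1.56 and 1.57. Cxcl9 was at 2372 CPM in WT LPS and 0.458 CPM in WT IL-4, and Il4i1 at 16.7 CPM in WT LPS and 600.0 CPM in WT IL-4. With 6 libraries that differ mainly by treatment, many genes can share such a profile.

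The libraries labelled Raw264.7 fell into separate sets by markers, which must be kept in view for what follows. The 3 Zmynd8 lines held all 9 neutrophil markers, with summed levels of 10423 RPM in WT Zmynd8, 4439 in D/E-A and 6995 in Zmynd8 KO, and all 4 B cell markers, at between 119 and 161 RPM. They also held between 7109 and 8467 reads of Xist, which female cells express, although Raw264.7 cells come from a male mouse. Their T cell markers summed to between 8.32 and 11.9, their dendritic cell markers to between 102 and 176 and their fibroblast markers to between 9.84 and 14.5 RPM. The tables of the 3 p65 lines list 3 of the 9 neutrophil markers, each with at most 3 reads, and Xist with at most 3 reads. In the p65 lines the B cell markers summed to at most 1.68, the T cell markers to at most 0.132, the dendritic cell markers to between 30.8 and 42.7 and the fibroblast markers to between 7.09 and 10.6 RPM. The labels of all 6 libraries give Raw264.7 as cell type, but also bone marrow as source and C57BL/6 as strain. These markers go against Raw264.7 as the only cells in the Zmynd8 lines, which are called here as labelled. Macrophage markers were found in all 6 libraries, at 2873, 4455 and 3695 RPM in WT Zmynd8, D/E-A and Zmynd8 KO and between 1626 and 1980.0 in the p65 lines. In bulk samples, more cells of a type and more RNA per cell cannot be told apart.

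The libraries were first checked for the targeted gene. Zmynd8 had 485 reads in WT Zmynd8 and 497 in D/E-A, and its value in Zmynd8 KO is not a whole number of reads, so no ratio was taken. Rela, which encodes p65, had 1601 reads in WT p65, 5850 in K122R and 765 in p65 KO. K122R thus held 3.80-fold the scaled Rela reads of WT p65, and p65 KO held 0.494 of them. Reads over a gene do not show whether its protein is made.

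In D/E-A against WT Zmynd8, 2 of the 8 genes were past 1.2-fold higher, against 36.7% of 12771 genes, and 1 was past 1.2-fold lower, against 35.9%, so neither share stands above that of all genes. The D/E-A table lists no gene under 21 reads of WT Zmynd8, which bounds this background. In Zmynd8 KO against WT Zmynd8, 3 were past 1.2-fold higher (33.8% of 21302 genes) and 1 lower (36.5%). Both comparisons share the WT Zmynd8 library. Nos2 had 9199 reads in WT Zmynd8, 49114 in D/E-A and 25371 in Zmynd8 KO, folds of 5.59 (5.47 to 5.72) and 2.54 (2.48 to 2.60). Slc7a2 had 7795, 17663 and 11554 reads, folds of 2.37 (2.31 to 2.44) and 1.36 (1.32 to 1.403). Asl had 601, 342 and 513 reads and was 1.68-fold (1.47 to 1.92) and 1.27-fold (1.13 to 1.44) lower.

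Ass1 and Gch1, of the nitric oxide side, were not past 1.2-fold in either line. Ass1 had 3811 reads in WT Zmynd8, 3934 in D/E-A and 4512 in Zmynd8 KO, and Gch1 had 3031, 3024 and 3616, with folds between 1.05 and 1.10. On the arginase side, Arg1 had 88, 91 and 93 reads and Arg2 536, 509 and 601, and the limits of their ratios held 1. Odc1 had 1688, 1656 and 2297 reads and was past 1.2-fold only in Zmynd8 KO, at 1.25-fold (1.18 to 1.33), a call that was lost with library totals, at a log2 ratio of 0.25.

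The cell markers moved in the same 3 libraries as Nos2. The macrophage marker Adgre1 had 6185 reads in WT Zmynd8, 15882 in D/E-A and 13699 in Zmynd8 KO, and Csf1r had 5553, 13077 and 9112. The neutrophil marker S100a8 had 49845, 17370 and 34121 reads. All 7 macrophage markers were higher in D/E-A than in WT Zmynd8, from 1.13-fold for Cd14 to 2.69-fold for Adgre1. When values were scaled by the sum of the 7 macrophage markers, an alternative chosen after seeing the data, the log2 ratio of Nos2 went from 2.48 to 1.82 in D/E-A and from 1.34 to 0.91 in Zmynd8 KO. Scaled this way, Slc7a2 went from 1.25 to 0.58 in D/E-A and from 0.45 to 0.01 in Zmynd8 KO. The other 6 genes were then all past 1.2-fold lower in D/E-A, with Ass1 turned from 0.11 to -0.55 and Gch1 from 0.06 to -0.60. On that scale 11.1% of the genes called in D/E-A and 19.8% in Zmynd8 KO were higher, against 50.5% and 48.0% before. The part of the cell mix in the result was not tested.

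**Figure D5:**
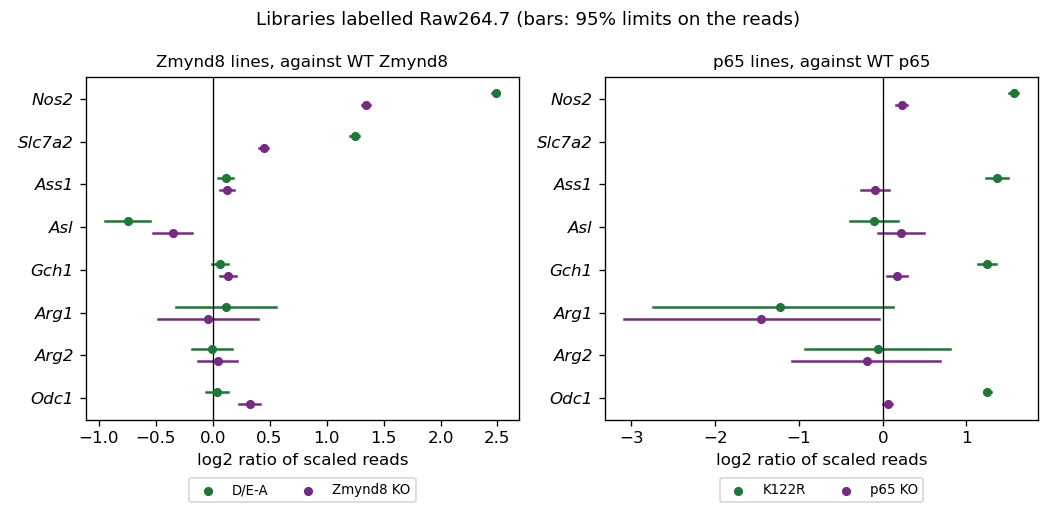
Log2 ratio of scaled reads for each gene in the libraries labelled Raw264.7, each mutant or KO line set against WT Zmynd8 (left) or WT p65 (right), 1 library each and bars for 95% limits on the reads. Slc7a2 is left out on the right, where it had at most 5 reads, and Nos2 is the highest point in D/E-A (5.59-fold), Zmynd8 KO (2.54-fold) and K122R (2.95-fold).

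In K122R against WT p65, 4 of the 8 genes were past 1.2-fold higher, against 30.8% of 19670 genes, and 2 were past 1.2-fold lower, against 32.5%. In p65 KO against WT p65, none of the 8 was past 1.2-fold higher (26.3% of 19879 genes) and 2 were past 1.2-fold lower (25.7%). Nos2 had 3414 reads in WT p65, 9701 in K122R and 3855 in p65 KO, folds of 2.95 (2.84 to 3.07) and 1.17 (1.12 to 1.22). Scaled by summed macrophage markers, its log2 ratio was 1.14 in K122R and turned from 0.22 to -0.06 in p65 KO, and 21.9% and 24.3% of all calls were higher in place of 48.6% and 50.6%. With reads over library totals, the log2 ratio of Nos2 in K122R was 1.42 in place of 1.56, and 37.0% of the calls in K122R were higher. Ass1 had 642, 1592 and 582 reads, with a fold of 2.58 (2.35 to 2.83) in K122R. Gch1 had 1038, 2368 and 1131 reads, with a fold of 2.37 (2.20 to 2.55) in K122R, and Odc1 had 5652, 12938 and 5695, with a fold of 2.38 (2.31 to 2.46). These 4 genes were thus higher in the library that also held 3.80-fold the scaled Rela reads of WT p65, and the part of Rela in it was not tested. Asl had 217, 194 and 244 reads.

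The 2 genes called lower in both p65 comparisons, Slc7a2 and Arg1, were called on few reads. Slc7a2 had 5 reads in WT p65, 0 in K122R and 1 in p65 KO. K122R and p65 KO were under the floor of 3 counts, so no fold is given, and the 0 does not show that the gene is silent. Arg1 had 17 reads in WT p65, 7 in K122R and 6 in p65 KO, with ratios of 2.34 (0.92 to 6.67) and 2.74 (1.03 to 8.48). Arg2 had 26, 24 and 22 reads. Per kilobase of exon, Odc1 was the highest of the 8 genes in all 3 p65 lines and Nos2 the next, whereas Nos2 was the highest in the 3 Zmynd8 lines.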

How the data were processed

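RNA-seq was measured in 12 libraries of 47 samples; the other 35 were not analysed here. Per the paper, the authors used TopHat with the mm10 transcriptome and pooled 3 biological replicates in a BMDM library; doses other than M-CSF come from its Methods. The submitters' processing notes name Bowtie 0.12.2 and CASAVA 1.4, with mm8 and mm10, without roles. For BMDMs the authors deposited estimated counts, rounded here, and TPM; 431, 431 and 2 entries that were not genes were dropped. For Raw264.7 they deposited a signal, which equals whole reads divided by a size factor for all values of each library but 1 (Zmynd8 in Zmynd8 KO, tolerance 0.01 reads). The table of D/E-A leaves out genes under 21 reads of WT Zmynd8, so genes that are low there are missing, and its WT Zmynd8 size factor was taken from the other table. The tables were normalized separately, and ratios were taken within a table on the deposited value + 1, with a mean value of at least 1. The deposited fold changes and p-values, were not used, nor were 2 value columns that match no label. The counter used was not given in the sources used here.

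A pseudocount of 1, 95% Clopper-Pearson limits and the floor of 3 counts were used with Python 3.11.15 and scipy 1.17.1; the alternatives used edgeR 4.0.16 (TMM) and DESeq2 1.42.0 (median ratio). The scripts were tested on simulated data. Alternatives were other pseudocounts, filters, folds and scalings, and, added after seeing the data, scaling by summed macrophage markers. Where 2 entries shared a symbol, the one with more counts was used. The text names the members, per comparison up to the 2 highest and 2 lowest called genes of 8 pathway lists, treatment and cell type markers, and the 5 genes with a mean of at least 10 CPM likest to Nos2 and Arg1; Xist and some list genes outside this rule were named after their values were seen, and some list genes are not reported here. The members and lists were chosen with earlier results of these data known.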

Additional observations from a re-analysis of the deposited data

Results flagged for a closer look

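Some genes lay on opposite sides of 0 in groups set under the same contrast. In log2(CPM + 1), Nos2 after IL-4 was -2.12 against NT in WT and 0.64 in cKO, and Asl was 0.23 in WT and -0.21 in cKO. With TPM, Asl lay on the same side in both, at 0.21 in WT and 0.03 in cKO. In cKO against WT, Slc7a2 was -0.80 in NT and 0.51 after LPS, and Asl was 0.36 in NT and -0.27 after LPS. Between the same genotypes, Nos2 was -0.89 in NT and 1.87 after IL-4, and Gch1 was -0.29 in NT and 0.68 after IL-4. With 1 library a group, none of these differences was tested. The WT IL-4 value of Nos2 rests on 35 counts.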

How the results depend on the processing

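The fold that counts as called moved the counts of genes most. At 1.2-fold, the genes called after LPS went from 5548 to 10861 in WT and from 5825 to 10829 in cKO, after IL-4 from 2124 to 8435 and from 2740 to 9197, and between LPS and IL-4 from 6612 to 11550 and from 6086 to 11364, with 7 of the 8 genes called in that WT comparison in place of 4. At 2-fold, the genes called in cKO against WT went from 6729 to 477 in NT, from 4449 to 112 after LPS and from 4065 to 261 after IL-4, and the members called from 4, 4 and 5 to 0, 0 and 1. At 2-fold, the calls went from 9271 to 2345 in D/E-A, from 14978 to 5460 in Zmynd8 KO with 1 member in place of 4, from 12453 to 3926 in K122R and from 10325 to 3149 in p65 KO. With a mean value of at least 5, p65 KO had 6514 calls and 1 member in place of 2. Scaling by summed macrophage markers, chosen after seeing the data, gave 8 members called in D/E-A in place of 3 and 4 in p65 KO in place of 2, and turned Odc1 in Zmynd8 KO from 0.32 to -0.11. With TPM, the difference of the LPS response of Odc1 turned from -0.12 to 0.21. The cause was not tested. TMM moved the middle gene by 0.58 and 0.56 after LPS, by -0.18 and -0.23 after IL-4 and by 0.78 and 0.73 between LPS and IL-4, and the share of calls that were higher after LPS went from 24.2% to 48.4% in WT and from 28.6% to 50.4% in cKO. Between LPS and IL-4 that share went from 21.1% to 47.9% in WT and from 20.1% to 48.0% in cKO, and after IL-4 from 61.9% to 50.3% and from 71.2% to 56.8%. In K122R, library totals gave 37.0% in place of 48.6%. Over all alternatives, 80 of 94 counts of genes and 86 of 94 counts of members stayed within 1.5 times, and 335 of 504 member values were taken as unmoved. Log2 ratios of members were judged by the width of their counting limits, and differences of the treatment response by a fixed step.

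Arg1 and Arg2 in NT and Arg1 and Slc7a2 in the p65 lines are limited by their few reads. With 1 library a group, there was no replicate to use as a block or to leave out. A fit of genotype and treatment over the 6 BMDM libraries, paired by treatment and with 1 genotype difference for all treatments, was not run.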
